A study of Mus musculus with 4 samples.

Results

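The genes described here encode the enzymes, transporters and control kinases of glycolysis, the pentose phosphate pathway and the tricarboxylic acid (TCA) cycle. The cells were RAW 264.7, a line of mouse macrophage-like cells that forms osteoclasts when given RANKL, the osteoclast-inducing cytokine, and M-CSF, a macrophage growth factor. A list of 32 gene symbols was matched to probe sets whose annotation gives exactly 1 gene symbol; of several such probe sets, the one with the highest mean stood for the gene. Of the 32 genes 29 had such a probe set, out of 19938 genes in all. Gpi1, Eno1 and G6pdx had none and were not analysed here. The 29 genes comprise 6 of glucose entry and upper glycolysis, 6 of lower glycolysis, 4 that set the fate of pyruvate, 4 of the pentose phosphate pathway and 9 of the TCA cycle with its cytosolic partner enzymes.

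Each of the 4 groups is 1 array: cells with a control vector, unstimulated or after 72 h of RANKL and M-CSF, and cells with a vector that expresses the microRNA miR-155, again unstimulated or after the same 72 h. A concentration of 20 ng/ml is stated, for RANKL alone or for each cytokine. The control cells are called wild-type in the series text, although their own description names a control vector. All groups are 1 cell line, and neither the vector's promoter nor the number of clones is stated in the labels. Values are log2 expression values, so a difference of 1 is a doubling, and a difference between 2 arrays comes with no replicates and no p-value.

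Glycolysis splits glucose into pyruvate in the cytosol and yields ATP and, through lactate dehydrogenase, lactate. The pentose phosphate pathway branches off at glucose 6-phosphate and makes NADPH and ribose for nucleotides. The pyruvate dehydrogenase (PDH) complex carries pyruvate into the mitochondrial TCA cycle, which feeds electrons to the respiratory chain. Osteoclasts are rich in mitochondria, whereas activated macrophages are known for high glycolysis.

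The sequence that distinguishes the vectors is that of miR-155, shown because 2 of the 4 groups differ from the others by it. RefSeq (GRCm38.p6) places the mature 5p arm at chr16:84714143-84714165, plus strand, and the capitals mark its seed, bases 2 to 8, which pairs with target transcripts.
mmu-miR-155-5p: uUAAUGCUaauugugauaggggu
The probe set annotated as Mir155 lay between 3.58 and 3.73 on the 4 arrays, below a floor of 4.25 set from odorant and vomeronasal receptor probe sets. The arrays therefore do not check the expression of the vector.

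In control-vector cells 7 of the 29 genes differed by at least 1.5-fold after RANKL and M-CSF, 5 of them higher and 2 lower. Malate dehydrogenase Mdh1 was 2.01-fold higher, the PDH subunit Pdha1 1.98-fold and citrate synthase Cs 1.82-fold. The glycolytic regulator Pfkfb3 was 2.37-fold lower and the cytosolic isocitrate dehydrogenase Idh1 1.84-fold lower. The aldolase Aldoc and the mitochondrial malate dehydrogenase Mdh2 were the other genes past 1.5-fold, a log2 difference of 0.58. The 5 higher genes are 17.2% of the 29 and the 2 lower ones 6.90%. Of all 13541 genes above the floor 12.4% were as much higher and 15.2% as much lower, and neither count over the whole list is read as a result about these genes. The median log2 difference was 0.01 over the 29 genes and -0.02 over all genes above the floor. All 29 genes were above the floor on all 4 arrays.

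**Figure D1:**
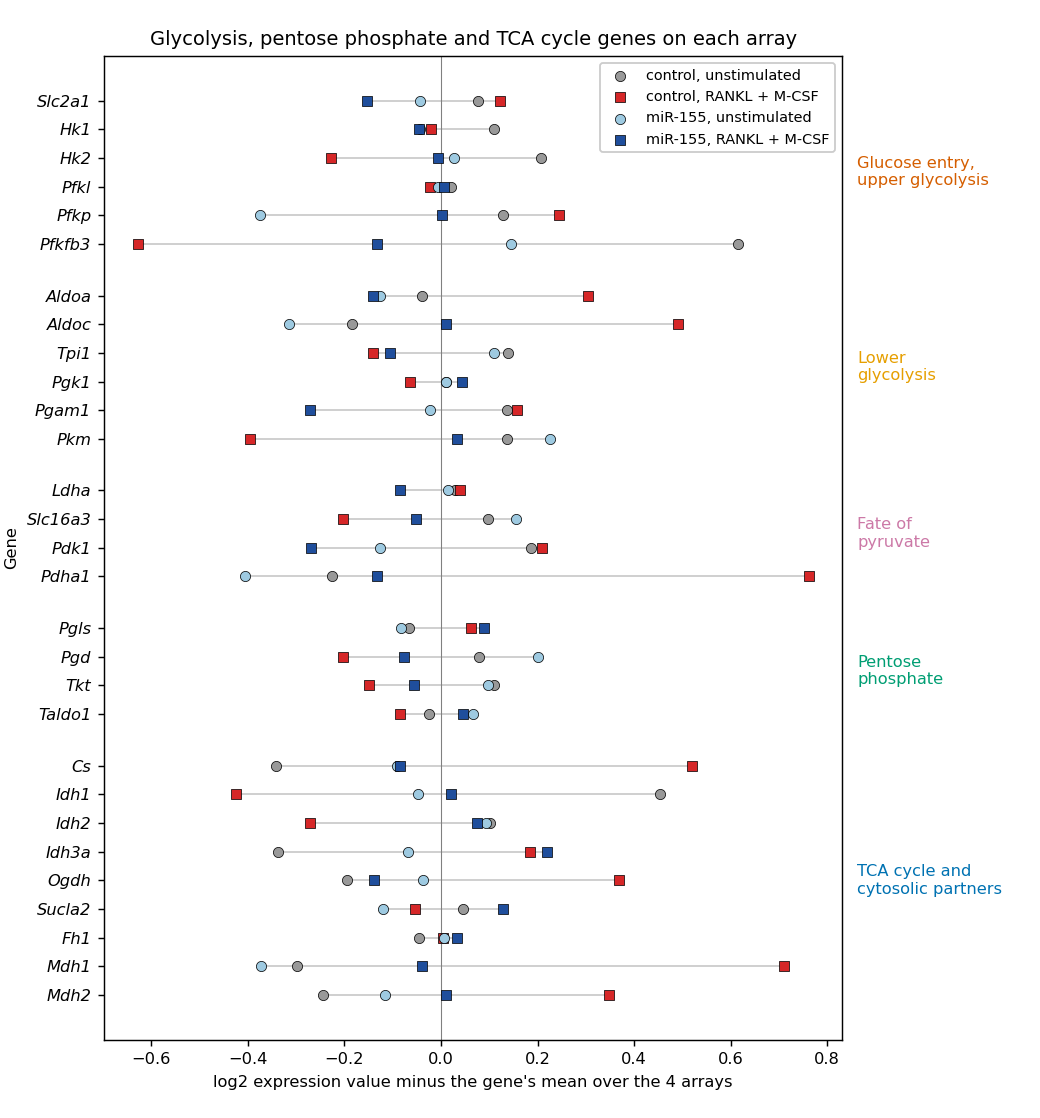
Each row is 1 gene, and each symbol is 1 array's log2 expression value minus the mean of that gene over the 4 arrays (x axis, log2 units); circles are unstimulated and squares stimulated cultures. The stimulated control array (red squares) lies apart from the other 3 arrays for Pdha1, Mdh1, Cs and Ogdh on the high side and for Pfkfb3, Idh1, Idh2 and Pkm on the low side. For Pfkfb3 and Idh1 the unstimulated control array (grey circles) also lies apart, on the high side.

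The branches differed in where these values lay. In control cells the TCA branch had a median log2 difference of 0.52, with 3 of 9 genes past 1.5-fold higher and 1 lower. Over all genes above the floor the median was -0.02, with 12.4% as much higher and 15.2% as much lower. The difference between branches was not tested. Medians of the other branches lay between -0.16 and 0.02: -0.09 for glucose entry and upper glycolysis, -0.03 for lower glycolysis, 0.02 for the fate of pyruvate and -0.16 for the pentose phosphate pathway. Centring each array on its median over genes above the floor raises every difference of this comparison by 0.14. That turns the sign of 2 of these branch medians, to 0.05 for upper and 0.11 for lower glycolysis. It also takes the TCA median to 0.67 and puts 7 genes past 1.5-fold higher. As a reference for noise, 95% of 1205 odorant and vomeronasal receptor probe sets differed by less than 0.48 between the same 2 arrays; these are dim probe sets, so this is no replicate error. Of the 29 genes 10 (34.5%) exceeded it, 6 of them in the TCA branch, as did 34.2% of all genes above the floor.

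Glucose enters through Slc2a1, which encodes the transporter GLUT1. Its log2 value was 10.12 in unstimulated and 10.16 in stimulated control cells, and 10.00 and 9.89 in miR-155 cells. All 4 values lay within 0.27 of each other.

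Hexokinases trap glucose as glucose 6-phosphate. For Hk2, the inducible hexokinase, the control values were 8.95 and 8.52 before and after stimulation, and the miR-155 values 8.77 and 8.74. Stimulated control cells had the lowest value, by 0.43 against its unstimulated partner, which is inside the noise reference. For Hk1 the reading depends on the probe set. The one with the highest mean, annotated with 1 mRNA record outside RefSeq, read 12.61 and 12.48 in control and 12.46 on each miR-155 array. The other, annotated with RefSeq mRNAs of Hk1, read 8.31 and 9.26 in control cells, a difference of 0.96, and 8.45 and 8.50 in miR-155 cells. By the RefSeq probe set Hk1 would be a further gene past 1.5-fold higher in control cells. Which probe set reads Hk1 was not tested.

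Phosphofructokinase commits sugar to glycolysis, and Pfkfb3 makes fructose 2,6-bisphosphate, its strongest activator. Pfkfb3 read 6.67 in unstimulated control cells and 5.43 after stimulation, against 6.20 and 5.92 in miR-155 cells. The stimulated control array was the lowest and the unstimulated control array the highest, so the difference was -1.24 in control and -0.28 in miR-155 cells. Pfkl, the liver-type phosphofructokinase, stayed between 9.30 and 9.34 on all 4 arrays. Pfkp, the platelet type, read 10.18 and 10.29 in control cells and 9.67 and 10.05 in miR-155 cells. Its low value was that of unstimulated miR-155 cells, and its difference of 0.38 after stimulation was the largest of the 29 genes in miR-155 cells.

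In lower glycolysis aldolases split fructose 1,6-bisphosphate, and 1 of the 2, Aldoc, was past 1.5-fold higher in stimulated control cells. It read 10.11 and 10.79 in control and 9.98 and 10.31 in miR-155 cells, a difference of 0.68 against 0.33. Aldoa, the aldolase of muscle and many other tissues, read 12.81 and 13.15 in control and 12.72 and 12.70 in miR-155 cells, and its control difference of 0.34 lay inside the noise reference. Both aldolases had their highest value in stimulated control cells. Triose-phosphate isomerase Tpi1 was lower in both vectors, by -0.28 and -0.22.

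Phosphoglycerate kinase Pgk1 and phosphoglycerate mutase Pgam1 generate ATP and rearrange 3-phosphoglycerate. Their differences were small, at -0.08 and 0.03 for Pgk1 and 0.02 and -0.25 for Pgam1 in control and miR-155 cells. Both genes have 3 probe sets, 2 of which carry the same values, and transcripts of near-identical copies cannot be told apart with them. For Pgam1 these 2 were not the ones used, and they gave 0.22 in control and -0.20 in miR-155 cells. Those values also lay inside the noise reference. Pyruvate kinase Pkm, which makes pyruvate and ATP, read 12.73 and 12.20 in control and 12.82 and 12.63 in miR-155 cells. Its lowest value was that of stimulated control cells, with a difference of -0.53; a second Pkm probe set gave -0.60, past 1.5-fold.

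Pyruvate becomes lactate through Ldha, and lactate leaves through the exporter Slc16a3 (MCT4). Ldha stayed between 12.76 and 12.89 on the 4 arrays, and Slc16a3 differed by -0.30 in control and -0.21 in miR-155 cells. Pdk1, a kinase that switches the PDH complex off, read 8.08 and 8.11 in control and 7.77 and 7.63 in miR-155 cells. Both miR-155 arrays lay below both control arrays, by -0.31 without and -0.48 with stimulation. Pdha1, the catalytic subunit that Pdk1 phosphorylates, read 9.31 and 10.30 in control cells and 9.13 and 9.41 in miR-155 cells. Its stimulated control value stood 0.89 above the next highest array.

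None of the 4 pentose phosphate genes was past 1.5-fold in any comparison. Pgls, Pgd, Tkt and Taldo1, which encode the lactonase, the NADPH-producing 6-phosphogluconate dehydrogenase, transketolase and transaldolase, had control differences from -0.28 to 0.13 and miR-155 differences from -0.28 to 0.17. None exceeded the noise reference in any of the 4 comparisons. Of all genes above the floor 14.8% to 34.2% exceeded it, depending on the comparison. Past 1.5-fold in a given direction were 1.18% to 15.2% of them. Counts of 0 among 4 genes are therefore not read as a trait of this branch. Pgd was lower by the same size in both vectors, at -0.28.

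Within the TCA cycle Cs joins acetyl-CoA to oxaloacetate. It read 10.68 and 11.54 in control and 10.93 and 10.94 in miR-155 cells, so the stimulated control array stood alone. Idh3a, a subunit of the NAD-dependent isocitrate dehydrogenase, read 10.28 and 10.80 in control and 10.55 and 10.84 in miR-155 cells. Here the 2 stimulated arrays were the highest. Ogdh, the 2-oxoglutarate dehydrogenase, read 9.75 and 10.31 in control and 9.91 and 9.80 in miR-155 cells.

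Malate dehydrogenases interconvert malate and oxaloacetate, Mdh2 in mitochondria and Mdh1 in the cytosol, where it serves the malate-aspartate shuttle. Mdh1 read 10.34 and 11.35 in control and 10.27 and 10.60 in miR-155 cells. Mdh2 read 11.98 and 12.58 in control and 12.11 and 12.24 in miR-155 cells. For both genes the stimulated control array was the highest and the stimulated miR-155 array came second. Mdh2 was the last gene past 1.5-fold, at 0.59, and Ogdh the first below it, at 0.56.

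Of the 2 NADP-dependent isocitrate dehydrogenases, which supply NADPH, Idh1 was past 1.5-fold lower and Idh2 was not. Idh1 read 10.51 and 9.63 in control and 10.01 and 10.08 in miR-155 cells, a difference of -0.88 against 0.07. The mitochondrial Idh2 read 9.76 and 9.39 in control and 9.75 and 9.74 in miR-155 cells; its control difference of -0.37 lay inside the noise reference. Both were lowest on the stimulated control array. For Idh1 the unstimulated control array, at 10.51, also lay apart, above both miR-155 arrays. Sucla2, the ATP-forming succinyl-CoA ligase subunit, differed by -0.10 and 0.25, and fumarase Fh1 by 0.05 and 0.03.

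In miR-155 cells the same treatment left all 29 genes within 1.5-fold, where 3.43% of all genes above the floor were higher and 3.74% lower. Their log2 differences ran from -0.28 for Pfkfb3 to 0.38 for Pfkp. None exceeded the noise reference of 0.42, against 16.3% of all genes above the floor. The branch medians lay between -0.12 and 0.07. The absolute difference was larger in control than in miR-155 cells for 22 of the 29 genes (75.9%), as it was for 66.4% of all genes above the floor. Its median over the 29 genes was 0.28 in control and 0.14 in miR-155 cells, against 0.30 and 0.18 over all genes. The direction was the same in both vectors for 19 of 29 genes (65.5%), against 58.0% of all genes above the floor.

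**Figure D2:**
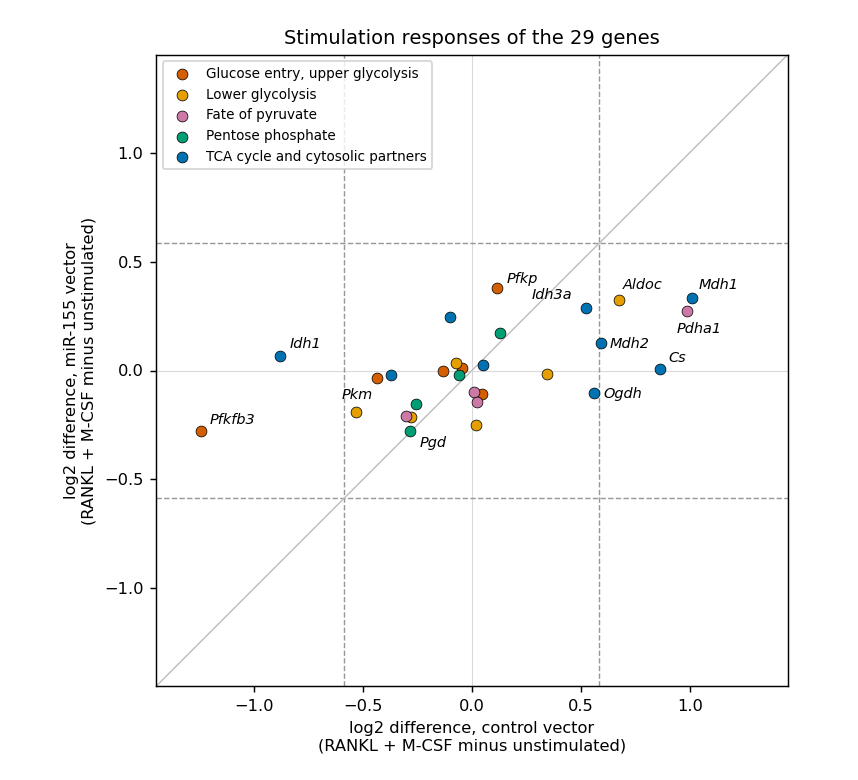
Each point is 1 of the 29 genes, with its log2 difference between stimulated and unstimulated cells in the control vector (x axis) and in the miR-155 vector (y axis), coloured by branch; dashed lines mark 1.5-fold and the diagonal equal responses. The 5 genes right of the upper dashed line and the 2 left of the lower one all lie between the horizontal lines, within 1.5-fold in miR-155 cells.

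Subtracting the control response from the miR-155 response gave at least 1.5-fold lower values for 4 genes (13.9% of all genes were as low): Cs at -0.85, Pdha1 at -0.71, Mdh1 at -0.68 and Ogdh at -0.66. It gave at least 1.5-fold higher values for 2 genes (14.5% of all genes): Pfkfb3 at 0.97 and Idh1 at 0.95. With 1 array per group this difference of responses was not tested, and all 4 arrays enter it.

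Without stimulation the vectors differed by less than 1.5-fold for all 29 genes, where 1.18% of all genes above the floor were higher in miR-155 cells and 3.15% lower. The largest differences were -0.50 for Pfkp, -0.50 for Idh1 and -0.47 for Pfkfb3, the only 3 of the 29 (10.3%) beyond the noise reference of 0.37, against 14.8% of all genes above the floor. Genes of glucose entry and upper glycolysis had differences from -0.50 to -0.03 with a median of -0.17, where 50.1% of all genes above the floor lay below 0; the RefSeq probe set of Hk1 gave 0.15, and with centred arrays Pfkl stood at 0.03. Cs and Idh3a had the highest differences, at 0.25 and 0.27.

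With stimulation 3 of the 29 genes were at least 1.5-fold lower in miR-155 than in control cells and none was higher, where 13.6% of all genes were lower and 12.4% higher. The 3 were Pdha1 at -0.89, Mdh1 at -0.75 and Cs at -0.60. Ogdh followed at -0.51, Aldoc and Pdk1 at -0.48 and Aldoa at -0.45. On the other side stood Pfkfb3 at 0.50, Idh1 at 0.45 and Pkm at 0.43. The stimulated control array also enters the response of control cells, so these genes are not seen on separate arrays. Branch medians between stimulated vectors ran from -0.30 for the fate of pyruvate to 0.11 for the pentose phosphate pathway. The TCA branch had a median of 0.03, with 5 of 9 genes above 0.

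**Figure D3:**
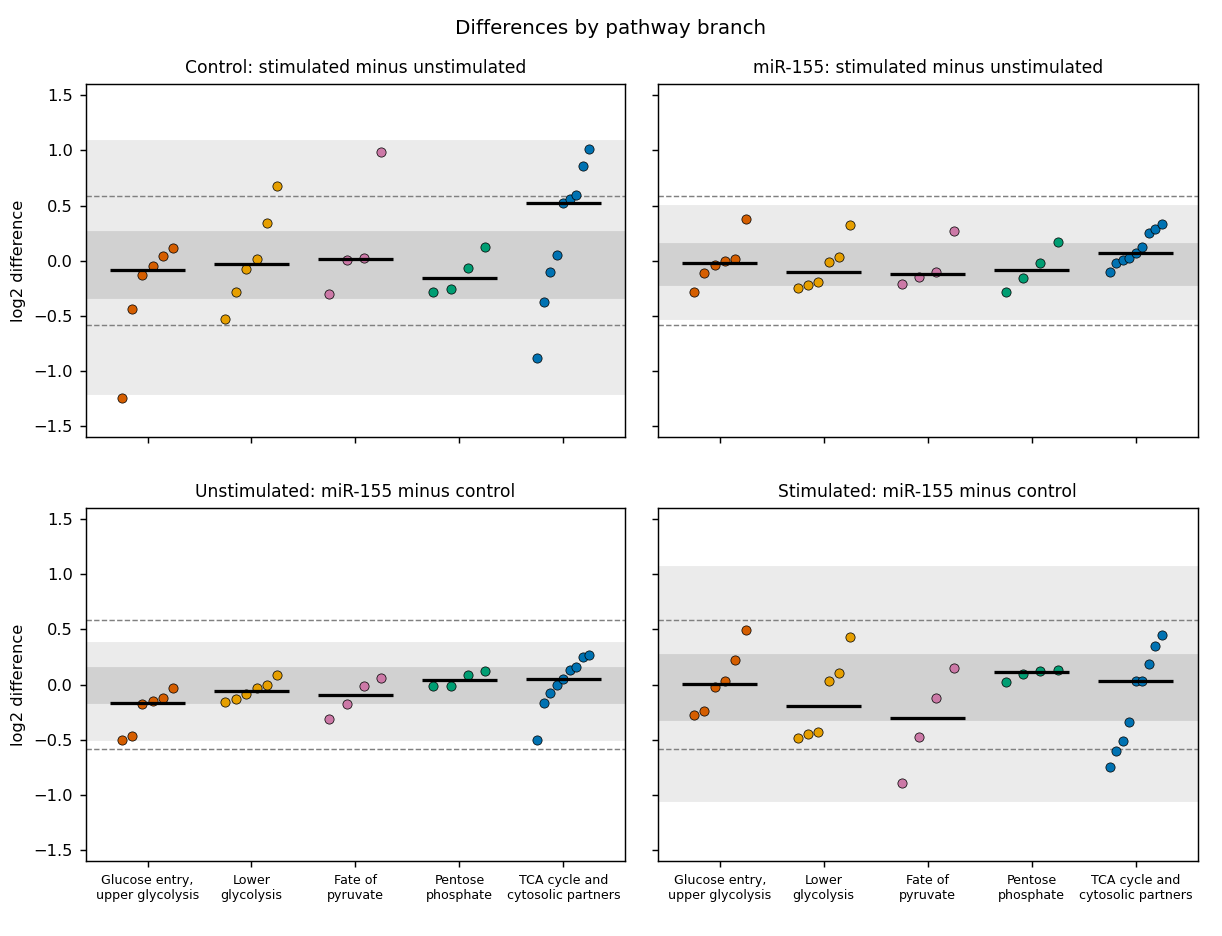
Points are the log2 differences of single genes by branch in each of the 4 comparisons, with black bars at the branch medians and dashed lines at 1.5-fold; light and dark grey bands hold the middle 90% and 50% of all genes above the floor. Most points lie inside the light band, and the TCA branch in control cells has the highest median, 0.52.

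An additive limma model over all genes above the floor, with stimulation and vector as terms, used the disagreement between the vectors as its only source of error. It called 0 of the 13541 genes at a Benjamini-Hochberg adjusted p under 0.05 for either term. At an unadjusted p under 0.05 it had 7.57% of all genes for stimulation and 3.86% for the vector, and 0 of the 29 genes for either. Mdh1 came closest for stimulation, at a mean log2 difference of 0.67 (SE 0.26) higher in 2 of 2 vectors, with a limma p of 0.058 and an adjusted p of 0.65. Pfkfb3 stood at -0.76 (SE 0.31), lower in 2 of 2 vectors, also with an adjusted limma p of 0.65. The lowest adjusted limma p for the vector was 0.89.

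Other genes of these pathways, from a list of 62, gave the same branches more members. Of 51 above the floor 27 were at least 1.5-fold higher and 5 lower in stimulated control cells, with a median log2 difference of 0.63; the shares over all genes above the floor were 12.4% and 15.2%. In miR-155 cells 6 were higher and 2 lower, with a median of 0.05, against 3.43% and 3.74% of all genes. The split into branches that follows was made with the values known. Among TCA cycle enzymes and their feeders 13 of 22 were higher and none lower in control cells, and among the pyruvate carrier, PDH subunits and their control enzymes 7 of 9 were higher and 1 lower, beside the same 12.4% and 15.2%. In miR-155 cells the first of these had none past 1.5-fold in either direction, and the second had 1 higher, Dld, the shared dihydrolipoamide dehydrogenase, at 0.85. For sugar transport, glycolysis and monocarboxylate transport 7 of 16 were higher and 3 lower in control cells. In miR-155 cells 5 of these 16 were higher and 2 lower. Of the other pentose phosphate genes 0 of 4 were higher and 1 lower in control cells, with a median of -0.11. None of these 4 was past 1.5-fold in miR-155 cells.

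Complexes could be read subunit by subunit. All 5 PDH subunits, Pdha1, Pdhb, Pdhx, Dlat and Dld, were past 1.5-fold higher in control cells, from 0.64 to 0.99. All 4 succinate dehydrogenase subunits were too, from 0.77 for Sdhd to 1.11 for Sdhb. In the same comparison 12.4% of all genes above the floor were past 1.5-fold higher. Whether subunits of a complex moved together was not tested. The 3 subunits of the NAD-dependent isocitrate dehydrogenase ranged from 0.39 for Idh3g to 0.82 for Idh3b, with Idh3a between them. Ogdh stood at 0.56 and its partner subunit Dlst at 0.64. In succinyl-CoA ligase the shared subunit Suclg1 was higher by 1.07, while the nucleotide-specific subunits Sucla2 and Suclg2 stood at -0.10 and 0.03. In miR-155 cells these subunits, Dld excepted, lay between -0.26 and 0.44.

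Isoenzymes of one step differed from each other. Among the enzymes that set fructose 2,6-bisphosphate, Pfkfb2 was 8.09-fold higher in stimulated control cells (log2 7.27 and 10.28), where Pfkfb3 was lower. In miR-155 cells Pfkfb2 read 6.61 and 8.09, a difference of 1.48. Of the other pathway genes in control cells, Pfkfb2 had the largest increase. Hkdc1, a hexokinase relative, read 4.32 and 7.13 in control and 4.52 and 5.31 in miR-155 cells, starting near the floor. Hk3, the hexokinase of myeloid cells, differed by 0.77 and 0.89.

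Transporters also differed among themselves. Slc2a6 (GLUT6), a sugar transporter of macrophages, was 10.0-fold lower in stimulated control cells, at 9.18 and 5.86, and read 9.43 and 8.61 in miR-155 cells. Slc2a3 (GLUT3), chosen after its values were seen, was lower by -1.69 and -0.19, while Slc2a1 stayed level. Among monocarboxylate carriers Slc16a7 (MCT2) was higher by 2.66 and 0.81 and Slc16a1 (MCT1), also chosen after its values were seen, stood at -1.42 and 0.01. The exporter Slc16a3 lay between them, at -0.30 and -0.21. Eno3, the muscle-type enolase, had differences of like size in both vectors: it read 7.52 and 9.34 in control and 7.30 and 9.16 in miR-155 cells, a difference of 1.82 against 1.86.

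**Figure D4:**
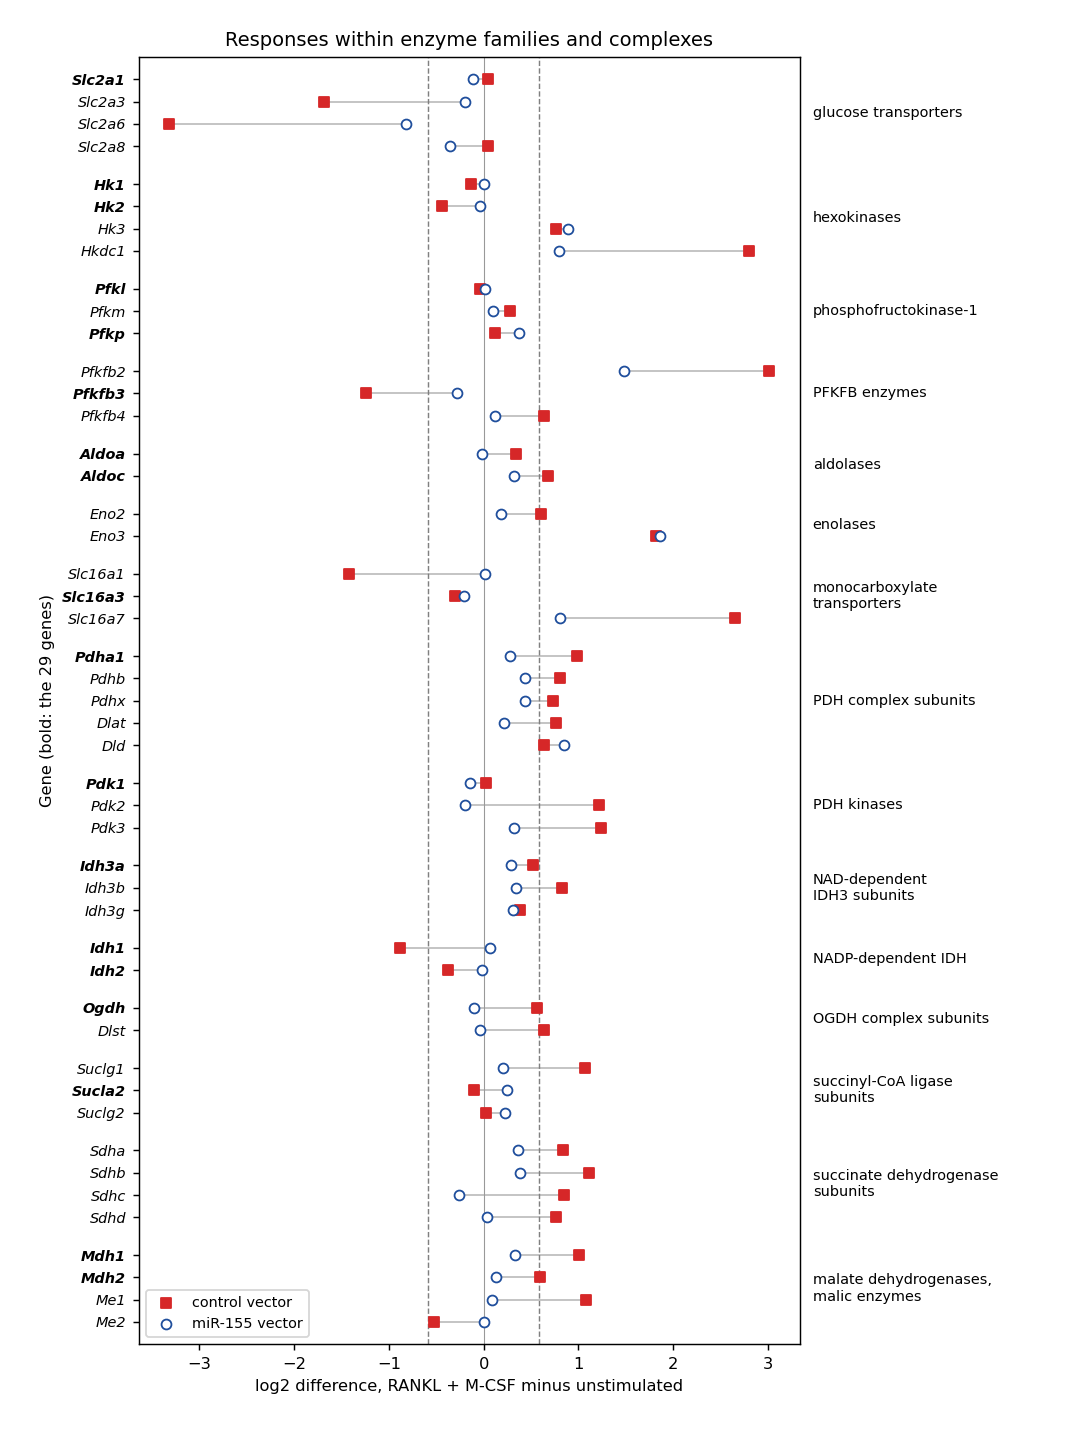
Rows are genes grouped by enzyme family or complex, with the log2 difference between stimulated and unstimulated cells (x axis) in control-vector cells (red squares) and miR-155 cells (open blue circles); dashed lines mark 1.5-fold and bold names belong to the 29 genes. Red squares of the PDH and succinate dehydrogenase subunits all lie right of the upper 1.5-fold line. Those of the hexokinases, PFKFB enzymes and monocarboxylate transporters scatter over both sides of 0. Those of the glucose transporters lie near 0 or left of the lower 1.5-fold line.

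Regulators of these pathways were read as well. Hif1a, the hypoxia-inducible factor that drives glycolytic genes, stayed between 8.40 and 8.50 on the 4 arrays, and its partner Arnt differed by 0.14 and -0.28 with stimulation. Myc, which activates glycolytic genes, was higher by 4.04 in control and 2.85 in miR-155 cells. Ppargc1b, a coactivator of mitochondrial genes, read 7.30 and 8.89 in control and 7.08 and 6.91 in miR-155 cells. Its difference with stimulation was 1.59 in control and -0.17 in miR-155 cells. The Myc antagonist Mxi1 (0.04 and 0.00) and Tigar, which lowers fructose 2,6-bisphosphate (-0.37 and 0.21), stayed within the noise reference.

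Hypoxia-inducible genes outside these pathways had 2 of 9 members past 1.5-fold higher and 1 lower in stimulated control cells and none in miR-155 cells (12.4% and 15.2% of all genes in control, 3.43% and 3.74% in miR-155 cells). Between unstimulated vectors 3 of 9 were lower with miR-155, against 3.15% of all genes: Ndrg1, a hypoxia-inducible differentiation gene, at -1.47, the mitophagy receptor Bnip3 at -0.72 and the growth factor Vegfa at -0.61. After stimulation 4 of 9 were lower, against 13.6% of all genes: these 3, at -1.29, -1.07 and -1.27, and the carbonic anhydrase Car9 at -0.70. Of the 9 genes 4 had differences above 0 between unstimulated vectors and 3 between stimulated vectors, with list medians of -0.03 and -0.17. The highest between stimulated vectors was Egln1, at 0.51. All names in this paragraph were chosen after their values were seen.

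Promoters are shown for the 3 genes with the largest increase and the 2 with the largest decrease in stimulated control cells, as the sequences next to the starts of the genes that differed most. Each is the 250 bases before a RefSeq start (GRCm38.p6), 5′ to 3′, and 28 of the 29 genes had at least 1 window. Capitals mark matches on either strand to 7 motifs: the E-box CACGTG bound by Myc, the hypoxia response element TACGTG, the NRF1 site CGCATGCG, the ETS site CCGGAAG, the ERR site TCAAGGTCA, the GC box GGGCGG and the CCAAT box CCAAT. Pfkfb3 and Idh1 have 2 windows each; the one with an E-box is shown for Pfkfb3 and the first for Idh1.
Mdh1, chr11:21571935-21572184, minus strand: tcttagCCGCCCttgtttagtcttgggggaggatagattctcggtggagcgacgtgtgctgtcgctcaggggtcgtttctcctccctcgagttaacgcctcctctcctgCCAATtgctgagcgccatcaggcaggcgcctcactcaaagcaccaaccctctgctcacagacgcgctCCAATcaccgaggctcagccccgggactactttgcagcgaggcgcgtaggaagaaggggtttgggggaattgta
Pdha1, chrX:160138431-160138680, minus strand: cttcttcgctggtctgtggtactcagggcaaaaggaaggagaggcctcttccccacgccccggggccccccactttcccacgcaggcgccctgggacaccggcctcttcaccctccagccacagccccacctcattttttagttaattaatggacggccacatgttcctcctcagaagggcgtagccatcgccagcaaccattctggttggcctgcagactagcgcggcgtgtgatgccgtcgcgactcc
Cs, chr10:128337477-128337726, plus strand: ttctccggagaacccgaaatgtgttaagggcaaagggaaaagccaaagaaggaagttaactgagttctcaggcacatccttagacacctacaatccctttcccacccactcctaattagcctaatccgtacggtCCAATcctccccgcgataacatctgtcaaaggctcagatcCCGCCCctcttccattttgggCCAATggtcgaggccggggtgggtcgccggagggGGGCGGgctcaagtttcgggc
Pfkfb3, chr2:11502091-11502340, minus strand: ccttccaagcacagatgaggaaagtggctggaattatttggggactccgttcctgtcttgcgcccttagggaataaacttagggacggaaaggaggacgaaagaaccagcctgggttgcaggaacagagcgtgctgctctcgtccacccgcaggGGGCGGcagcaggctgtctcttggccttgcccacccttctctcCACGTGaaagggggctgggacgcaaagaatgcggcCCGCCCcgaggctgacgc
Idh1, chr1:65186480-65186729, minus strand: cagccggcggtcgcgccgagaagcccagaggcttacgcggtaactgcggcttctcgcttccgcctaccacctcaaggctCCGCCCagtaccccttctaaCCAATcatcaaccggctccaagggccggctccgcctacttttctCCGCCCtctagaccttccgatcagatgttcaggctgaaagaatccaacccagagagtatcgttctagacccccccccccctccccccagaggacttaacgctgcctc
The E-box of Pfkfb3 begins 53 bases before that start, and no marked matches overlap in these 5 windows. Pdha1 held no match to any of the 7 motifs, and the matches in Mdh1, Cs and Idh1 are GC and CCAAT boxes. Of the 28 genes with a window, 3 held an E-box (Pfkfb3, Ldha and Ogdh), 1 the hypoxia response element (Pgam1), 2 the NRF1 site (Pgam1 and Ogdh), 1 the ETS site (Aldoc), none the ERR site, 24 a GC box and 13 a CCAAT box. Among all 32851 windows of the same length these motifs occurred in 6.02% (E-box), 2.72% (hypoxia response element), 1.55% (NRF1), 6.91% (ETS), 0.387% (ERR), 32.7% (GC box) and 33.8% (CCAAT box). These shares are per window, whereas a gene was counted when any of its windows matched. Genes with several windows had more chances of a match. Of the 43 windows of the 28 genes, 5 held an E-box, 1 the hypoxia response element and 3 the NRF1 site. The ETS site was in 1 of them, the ERR site in 0, a GC box in 28 and a CCAAT box in 17. A match says only that these letters are present.

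Cell cycle genes and several macrophage markers differed mainly on the stimulated control array, and most osteoclast markers on both stimulated arrays. Of all genes above the floor 12.4% were past 1.5-fold higher and 15.2% lower in stimulated control cells. In stimulated miR-155 cells the shares were 3.43% and 3.74%, so a count of 0 in a short list is common there. Of 7 osteoclast markers all 7 were past 1.5-fold higher in stimulated control cells and 6 in stimulated miR-155 cells, with medians of 6.43 and 4.88. Macrophage markers were lower for 4 of 7 in control cells and none in miR-155 cells; the sum of their linear values was 26083.6 and 11828.5 in control and 24489.5 and 21875 in miR-155 cells, and all 7 were above the floor on every array. Cell cycle genes were lower for 5 of 5 in control and none in miR-155 cells, with medians of -2.65 and 0.03. Of 6 T and B cell markers 2 were above the floor, and 5 fibroblast and osteoblast markers lay between 4.47 and 5.79, close to it. Among 9 reference genes 1 was past 1.5-fold in stimulated control cells, Hprt at -1.03, with a list median of -0.07. The stimulated control array correlated with the others at 0.908 to 0.937 over genes above the floor, and the other 3 with each other at 0.982 to 0.989. The part of these differences in the values of the 29 genes was not tested. In RNA from a whole culture, a change in the share of cells of one kind and a change in RNA per cell cannot be told apart.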

How the data were processed

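RNA was labelled from 100 ng of total RNA and read on Affymetrix Mouse 1.0ST arrays, per the labels' protocols. The authors deposited log2 expression values per probe set; the submitters' processing notes name RMA and Partek, with versions and build not given in the sources used here. RMA includes quantile normalization, which hides a change in total RNA per cell. Arrays have no read depth, and their number limits the precision. Platform annotation gave 1 symbol to 21789 of 35557 probe sets, several to 1621 and none to 12147. The highest-mean probe set stood for each of 19938 genes. A gene was kept when its highest value exceeded 4.25, the 95th percentile of receptor probe sets; 13541 were. Differences between arrays were counted past 1.5-fold. limma 3.58.1 (R 4.3.3) was run with additive terms for stimulation and vector, with 1 residual degree of freedom, their interaction. On simulated data without interaction, with a noise SD of 0.2 over 13541 genes, it recovered 92% of 50 genes changed by 1 (log2) for stimulation and 98% for the vector, with 6 and 10 false calls. That is not the power on these arrays. All 29 genes, rule-based picks of other lists and genes marked as chosen later are named; the picks are the 4 largest differences per stimulation response and 6 regulators. Members and lists were chosen with earlier results of these data known. Alternatives were renewed quantile normalization, centring, other probe sets, no filter, 2-fold and an intensity trend. Python 3.11.15, numpy 2.4.6, pandas 2.3.3 and matplotlib 3.10.9 were used.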

Additional observations from a re-analysis of the deposited data

Results flagged for a closer look

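Probe sets that did not stand for their gene gave values past 1.5-fold for 2 of the 29 genes. The Hk1 probe set annotated with RefSeq mRNAs differed by 0.96 between stimulated and unstimulated control cells, where the one used gave -0.13. Between the vectors after stimulation it differed by -0.76, against -0.02. For Pkm the probe set annotated with RefSeq mRNAs gave -0.60 in control cells, against -0.53, values that lie on both sides of the 1.5-fold threshold. Groups of 1 array allow no test for outlying samples.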

How the results depend on the processing

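Counts of the 29 genes past 1.5-fold came in 10 results (higher and lower in 4 comparisons and in the difference of the responses) with 60 alternative values, of which 55 lay within 1.5 times. At a 2-fold threshold the control response kept 1 higher and 1 lower gene, and the lower genes between stimulated vectors and both counts of the difference of the responses went to 0. The 25 branch medians moved by at most 0.14 (log2) under all 5 alternatives tried for them, less than the noise reference. Of 580 values for single genes 3 moved by more than that reference, all of them for Hk1: 0.41 in the control response with the mean of its probe sets, and 0.96 there and -0.76 between stimulated vectors with its RefSeq probe set, an alternative chosen after seeing the data. No called value changed sign. Many of the alternative values for branch medians and single genes could not move far or at all. Only 4 of the 29 genes have several probe sets, so a change of probe set left the others as they were. All 29 lay above the floor, so dropping the filter changed none of them. Centring shifts every gene of a comparison by the same amount, at most 0.14, which is below the noise reference. Limma called 0 of all genes for stimulation, against 2 with renewed quantile normalization, 4 with centred arrays, 1 with mean probe sets and 2 with an intensity trend, and none of the 29 genes under any of them; the cause was not tested. No paired analysis by replicate was possible because each group has 1 array and the labels give no replicate numbers; the additive limma fit compares stimulation within each vector. All 29 genes lay above the floor on every array. Their lowest value was 5.43, for Pfkfb3 on the stimulated control array, and the effect of background on the differences was not tested.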
